A study of Mus musculus with 8 samples.

Results

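The untreated cells of the study are read in the Cy3 channel of every array, and here those channels were compared between the 2 slides. RAW 264.7 is a mouse macrophage-like tumour line of BALB/c origin, established with the Abelson murine leukaemia virus. On each of 8 Agilent 2-colour arrays, cells given a bacterium at a multiplicity of infection of 1 for 6 h were labelled with Cy5, and untreated cells kept for the same time with Cy3. The bacteria were Lactobacillus acidophilus (2 arrays), Bacillus clausii (3 arrays) and Bifidobacterium bifidum (3 arrays), and every untreated channel carried the same label, with no agent. Both L. acidophilus arrays lay on slide 1, together with B. clausii replicate 3 and B. bifidum replicate 3. Replicates 1 and 2 of the other two bacteria lay on slide 2, so each slide gave 4 untreated channels of 8 in all, every sample of the series. Probes were kept where they were well above background in Cy3 on all 4 arrays of at least 1 slide and saturated on none. This left 20283 of 41174 probes, of which 9898 were above background on all 8 arrays, 10270 entered through slide 2 only and 115 through slide 1 only, and 108 more were left out as saturated. They gave 11781 named genes, each read by its brightest probe.

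Macrophages carry receptors for bacterial products and for type I interferon. Bacterial products act largely through NF-kB and MAP kinases and raise cytokines, chemokines, prostaglandin enzymes and immediate early genes. Type I interferon acts through a receptor of subunits IFNAR1 and IFNAR2 and, through factors that bind an interferon-stimulated response element, raises antiviral genes such as Isg15 and the Oas and Ifit families. In macrophage lines both programmes have a resting level. An untreated channel reads the level in cells given no bacterium, and the labels do not say whether those cells were at rest.

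Levels below are log2 Cy3 signals after background correction and scaling between arrays. Differences are slide 1 minus slide 2 on that log2 scale with their standard error (SE) and a limma p adjusted by the Benjamini-Hochberg method over the 11781 genes. Array values are given in the order L. acidophilus 1 and 2, B. bifidum 3 and B. clausii 3 for slide 1, and B. clausii 1 and 2, then B. bifidum 1 and 2, for slide 2. A gene is called at an adjusted p under 0.05.

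The arrays were first compared among themselves. For 6 pairs on the same slide, without B. clausii 3 and B. bifidum 2, the robust SD of the log2 differences over 10277 genes was 0.0771 to 0.121. The same 2 slides set against each other, in 12 pairs without B. clausii 3, gave 0.579 to 0.69. B. bifidum 2 differed from its own slide by 0.298 to 0.304. B. clausii 3 differed by 1.18 to 1.38 from every other array, had a grid that the scanner software marked as poor, and had 10410 probes above background in Cy3 against 19741 to 26401 on the other arrays. Repeated spots of 1 probe had a Cy3 coefficient of variation of 67.4% on it and of 14% to 20.2% elsewhere. Results are therefore given with and without B. clausii 3.

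**Figure D1:**
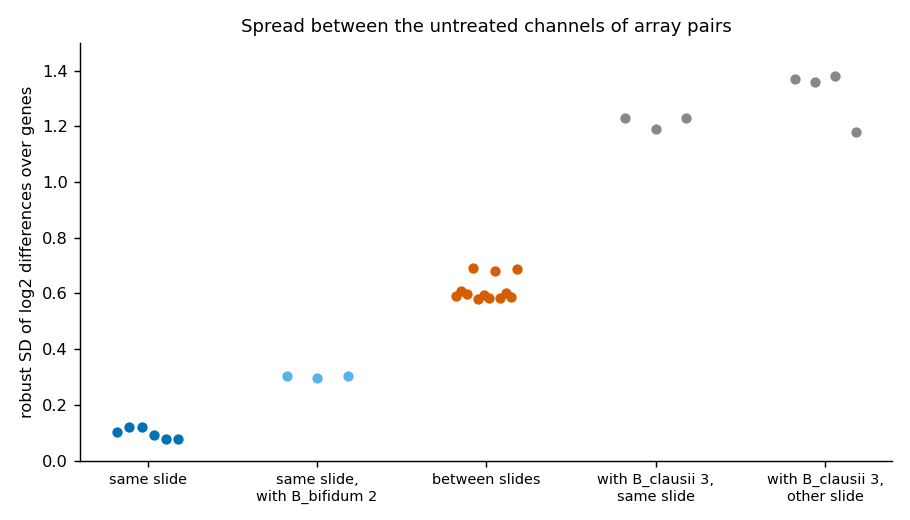
Robust SD of the log2 Cy3 differences over 10277 genes (vertical axis) for each pair of the 8 untreated channels, one point per pair, grouped by slide and by whether B. clausii 3 or B. bifidum 2 is in the pair. Pairs on the same slide lie at 0.0771 to 0.121, pairs between slides at 0.579 to 0.69, and every pair with B. clausii 3 at 1.18 or above.

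The same spots on L. acidophilus 1, L. acidophilus 2 and B. bifidum 3 differed by 0.111 to 0.124 (robust SD), and those on B. clausii 1, B. clausii 2 and B. bifidum 1 by 0.072 to 0.0889. Repeated spots within 1 of these arrays differed by more, 0.153 to 0.184. Nothing in the labels ties an untreated channel to a culture of its own, so these channels may be 1 RNA per slide, and p-values measure only the spread between hybridisations. Counting each of the 2 trios as 1 sample left 2 samples per slide, and that count is given beside the main one. The second sample was then B. clausii 3 on slide 1 and B. bifidum 2 on slide 2, the arrays that stood apart. The spread in that count is between a trio and such an array, and need not be that between cultures. Slides also differed in their scan. Slide 1 was read with an extended range (Cy3 saturation value 633884 to 640497) and slide 2 was not (65526). The slide, the scan and the untreated culture cannot be told apart.

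The labelled cell type was then checked. Of 12 macrophage markers, 11 were in the table, Cd68 having no named probe. Of these, 10 were above background on all 8 arrays, among them Spi1, the lineage's master transcription factor (10.1 on slide 1 and 9.92 on slide 2), and Csf1r, the receptor for macrophage colony-stimulating factor (12.3 and 12.5). Neither differed past the threshold, with adjusted p of 0.815 and 0.29. Over all 11 markers 6 were called, in both directions: Lyz2 (2.08), Mpeg1 (1.67), Cd14 (0.66) and Adgre1 (0.46) were higher on slide 1, and Fcgr1 (-3.01) and Laptm5 (-1.93) on slide 2. Few markers of other cell types were above background. On all 4 arrays of slide 1, 0 of 14 T and NK cell, 0 of 12 B cell, 0 of 11 dendritic cell and 0 of 12 epithelial markers were above background, and 2 of 13 fibroblast and 2 of 13 neutrophil markers were, Vim and S100a8 being the brightest of these lists. On slide 2 these counts were 3, 4, 3, 1, 2 and 4. The counts of slide 1 required a signal on B. clausii 3, the array with the fewest probes above background.

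Between the slides 3900 of 11781 genes (33.1%) were called. Of these 1456 (12.4%) were higher on slide 1 and 2444 (20.7%) were higher on slide 2, with a median over all genes of -0.113. Of the called genes 37.3% were higher on slide 1, and 51.4% of the 2276 called with scaling to the 75th percentile. The 4 arrays of a slide did not overlap those of the other for 5061 genes (43%). With a difference of at least 2-fold as well, 617 genes (5.24%) were higher on slide 1 and 945 (8.02%) on slide 2. Without B. clausii 3, 7449 genes (63.2%) were called, 3190 (27.1%) higher on slide 1 and 4259 (36.2%) higher on slide 2, and with the 2-fold rule 720 (6.11%) and 1004 (8.52%). All 3900 genes were called in the same direction without that array. With each trio counted as 1 sample, 56 genes (0.475%) were called by limma, 36 higher on slide 1 and 20 higher on slide 2, while 1718 had an unadjusted p under 0.05. By size alone, with no test, 1761 genes (14.9%) lay at least 2-fold apart, 698 (5.92%) higher on slide 1 and 1063 (9.02%) higher on slide 2.

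How a gene entered the table bears on these counts. Of 4765 genes that passed through slide 2 only, 659 were called and at least 2-fold higher there, and 72 were higher on slide 1. Of 6932 genes above background on all 8 arrays, 1047 were called higher on slide 1 and 896 higher on slide 2. Of these, 484 and 286 were at least 2-fold higher. Because a gene that entered through 1 slide was kept for its signal there, lists discussed at length are also given in a second form. That form takes the genes above background on all 8 arrays. Its counts are read against 1047 and 896 of 6932, and those of whole lists against 12.4% and 20.7% of all genes.

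**Figure D2:**
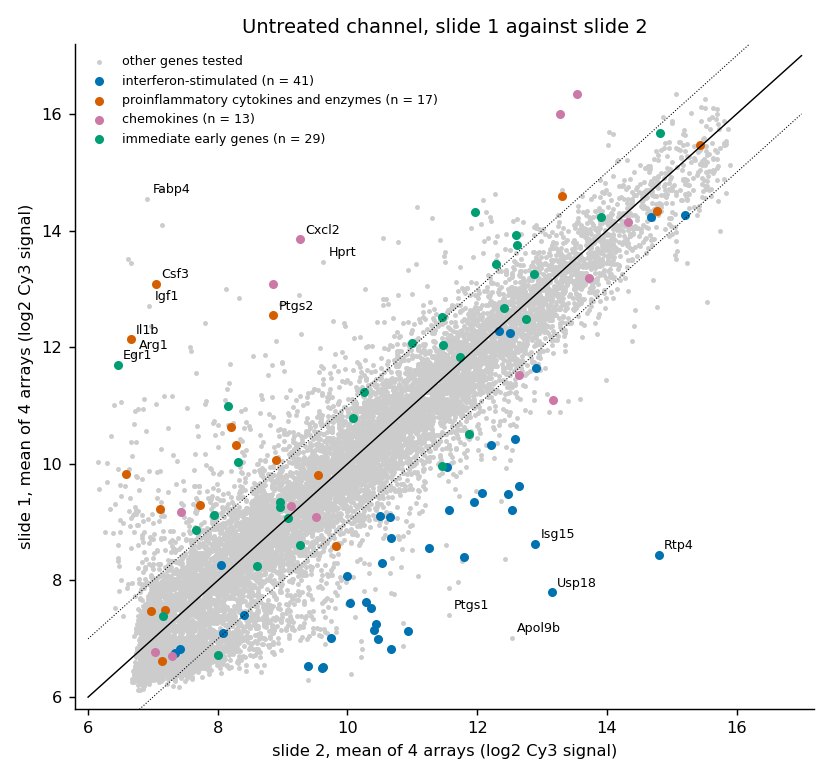
Mean log2 Cy3 signal of the 4 arrays of slide 1 (vertical) against slide 2 (horizontal) for the 11781 genes, with 4 gene lists in colour, the line of equality and dotted lines at a 2-fold difference. Interferon-stimulated genes such as Rtp4, Usp18 and Isg15 lie below the diagonal, and Csf3, Il1b, Ptgs2 and Cxcl2 lie far above it.

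Ratios of treated over untreated cells on an array were smaller than Cy3 differences between slides, but the 2 measures are unlike. The ratio set 2 channels of the same spots against each other after loess scaling within the array. The slide difference set single-channel signals of separate slides, scanned differently, against each other. How far the cells themselves differed was not tested by this. The median absolute log2 difference between slides was 0.432, while that of treated over untreated cells was 0.083 to 0.25 on the 8 arrays. At least 2-fold differences were 14.9% of genes between slides, and 0.0514% to 2.75% of genes between treated and untreated cells on an array.

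Type I interferon-stimulated genes were higher on slide 2. Of 48 listed genes, 45 had a probe and 41 were measured, and 35 of those were called higher on slide 2, 32 of them at least 2-fold, against 0 called higher on slide 1. The median of the 41 was -2.57, beside -0.113 over all genes tested. Of the 41, 29 passed through slide 2 only. Among the 12 above background on all 8 arrays, 8 were higher on slide 2 and 0 on slide 1, with a median of -1.57 beside 0.0203 for the 6932 genes of that class. Without B. clausii 3, 36 were above background on the other 7 arrays, and 33 of them were called higher on slide 2 with a median of -2.34. Over all 10277 genes of that kind, 3122 were called higher on slide 1 and 3154 higher on slide 2. With each trio as 1 sample, 9 of the 41 were called, all higher on slide 2.

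Where a RefSeq promoter was at hand, the interferon list could be set beside its best known motif. The core of the interferon-stimulated response element, GAAA, any 2 bases and GAAA on either strand with overlapping matches allowed, was searched in the 250 bases before each start in the GRCm38.p6 promoter table. It was present for 13 of the 33 measured list genes with an entry (39.4%), and for 308 of 9502 genes tested (3.24%) and 936 of all 27025 genes in the table (3.46%). A match of letters is not a site of binding. Stretches of 3 of these promoters follow, 5′ to 3′ on the gene's strand with every match in capitals, because they belong to list members that differed between slides.
Isg15, chr4:156200845-156200914, minus strand: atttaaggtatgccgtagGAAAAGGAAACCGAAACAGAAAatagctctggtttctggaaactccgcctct
Ifit1, chr19:34640774-34640843, plus strand: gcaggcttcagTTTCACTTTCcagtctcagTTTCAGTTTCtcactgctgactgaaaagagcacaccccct
Igtp, chr11:58199492-58199555, plus strand: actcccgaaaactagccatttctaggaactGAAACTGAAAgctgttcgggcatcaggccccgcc
The Isg15 stretch holds 3 overlapping matches, that of Ifit1 holds 2 on the reverse strand, and that of Igtp holds 1.

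Rtp4, an interferon-induced chaperone of membrane receptors, had the largest difference of the list. Its levels were 8.38, 8.43, 8.41 and 8.54 on slide 1 and 14.74, 14.72, 14.76 and 14.98 on slide 2. The arrays of the slides were far apart and those within a slide close together. The difference was -6.36 ± 0.11 (SE), 82-fold higher on slide 2 (adjusted p = 6.5e-08), and Rtp4 was 1 of the genes that stayed called with each trio as 1 sample (adjusted p = 0.0107). Irf7, the transcription factor that amplifies interferon production, read 8.39, 8.46, 8.42 and 8.32 against 11.92, 11.8, 11.82 and 11.61, a difference of -3.39 ± 0.11 (10.5-fold higher on slide 2, adjusted p = 8.6e-07). No array of slide 1 reached the lowest of slide 2 for either gene.

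Among the list's members are sensors of foreign nucleic acid. Ddx58, which encodes RIG-I, read 6.98, 6.94, 7.07 and 6.29 on slide 1 and 10.62, 10.6, 10.59 and 10.88 on slide 2. By this brightest probe it was 14.4-fold higher on slide 2 (-3.85 ± 0.19, adjusted p = 5.5e-06). Its 4 probes ranged from -3.85 to -0.307. Zbp1, a sensor of Z-form nucleic acid, differed by -3.2 ± 0.14 (9.16-fold) and Ifih1, which encodes MDA5, by -1.56 ± 0.18 (2.94-fold). Oas2, an oligoadenylate synthetase that activates RNase L, read 9.32, 9.35, 9.44 and 9.79 against 12.5, 12.46, 12.41 and 12.52 (7.97-fold higher on slide 2, adjusted p = 3.3e-06). The 2 groups of arrays did not overlap for any of these 4 genes. Tlr7 and Tlr9, nucleic acid receptors of the endosome from another list, differed by -0.7 ± 0.73 and 0.23 ± 0.19 and were not called (adjusted p = 0.51 and 0.39). Of the genes given here, Rtp4, Irf7, Ddx58 and Zbp1, and Usp18, Isg15 and Ifit1 below, were above background on 3 of the 4 arrays of slide 1.

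Igtp, a GTPase of vacuole defence, read 9.36, 9.21, 9.28 and 10.61 on slide 1 and 12.62, 12.63, 12.64 and 12.67 on slide 2, where it was 8.12-fold higher (-3.02 ± 0.3, adjusted p = 0.00023). B. clausii 3 was the highest of slide 1 and still below all of slide 2. Ifi27l2a, a small mitochondrial membrane protein, differed by -2.33 ± 0.19 (5.04-fold). Chosen after their values were seen, Usp18, which removes ISG15 from proteins and inhibits the interferon receptor, was 40.8-fold higher on slide 2 (-5.35 ± 0.3, adjusted p = 9.8e-06), the ubiquitin-like Isg15 was 19.1-fold higher (-4.25 ± 0.23, adjusted p = 8.5e-06) and Ifit1 was 11.1-fold higher.

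The receptor subunits and the transcription factors Stat2 and Irf9, which act below them, were also looked up after these values were seen. Stat2 was 3.79-fold higher on slide 2 (adjusted p = 0.0054) and Irf9 was 6.44-fold higher (adjusted p = 0.0056). Both were above background on 3 of the 4 arrays of slide 1. B. clausii 3 was the lowest array of slide 1 for both, and without it the folds were 3.01 and 4.43. The 2 probes of Irf9 differed by -2.69 and -0.378. Ifnar2 was 2.34-fold higher on slide 2 (adjusted p = 0.00012), while Ifnar1 differed by 0.31 ± 0.3 and was not called (adjusted p = 0.46). Ifnb1, the gene of interferon beta, was above background on 0 arrays of slide 1 and 1 of slide 2 and is not in the table. The 6 measured list genes that were not called were Bst2, Gbp7, Ifitm3, Daxx, Trim25 and Ifi47, with differences from -0.94 to 0.22.

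**Figure D3:**
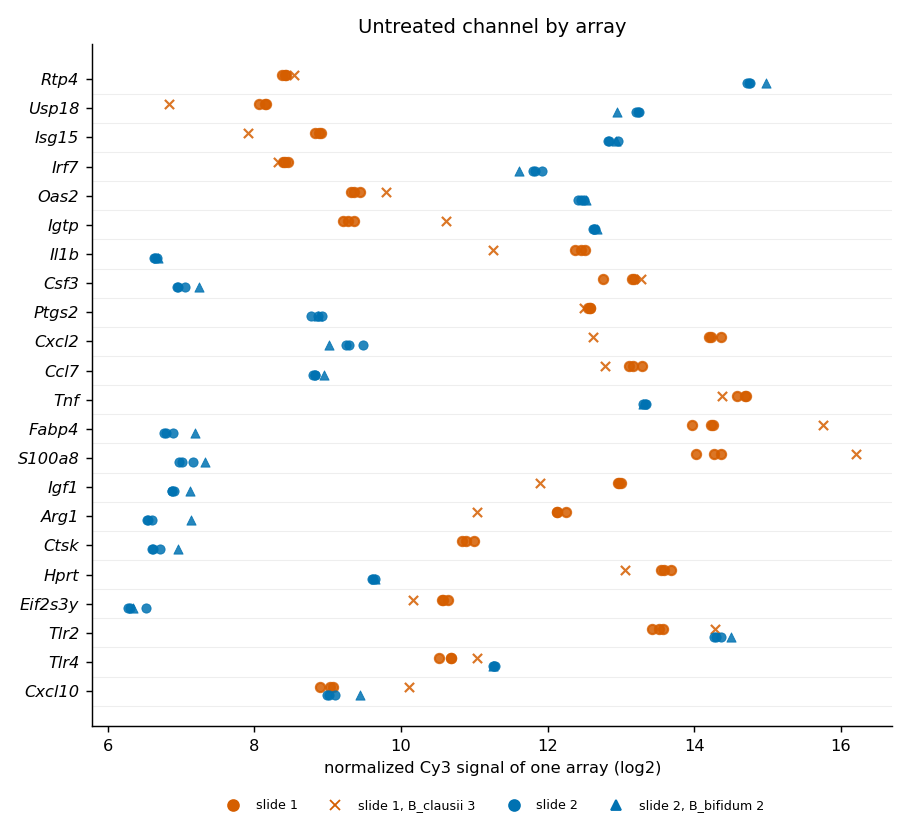
Normalized log2 Cy3 signal of each array (horizontal axis) for 22 genes (rows), slide 1 above and slide 2 below each row line, with B. clausii 3 as crosses and B. bifidum 2 as triangles. The 4 points of a slide lie together for Rtp4 and Ptgs2, the crosses stand apart for Il1b, Fabp4 and Igtp, and the slides overlap for Tlr2 and Cxcl10.

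Mediators of inflammation moved the other way for most genes. Of 17 measured proinflammatory cytokines and enzymes, 10 were called higher on slide 1 and 3 higher on slide 2, with a median of 1.27 (-0.113 over all genes). Among the 11 above background on all 8 arrays these counts were 7 and 2, with a median of 1.57. All 6932 genes of that class gave 1047 and 896. Without B. clausii 3 they were 13 and 3 of the 17. The 3 lower on slide 1 were Il27 (-1.23), Ltb (-0.45) and Hdc, which was above background on no array of slide 1 and at least 1.2-fold higher on slide 2. They fall outside the naming rule and are named for their small number.

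Csf3, which encodes granulocyte colony-stimulating factor, read 13.18, 13.15, 12.75 and 13.28 on slide 1 and 6.96, 7.05, 6.94 and 7.25 on slide 2. All arrays of slide 1 were above all of slide 2, and the difference was 6.04 ± 0.15 (65.9-fold, adjusted p = 3.0e-07). Il1b, the interleukin 1 beta gene, read 12.5, 12.45, 12.37 and 11.26 against 6.64, 6.66, 6.63 and 6.69 (5.49 ± 0.27, 44.9-fold, adjusted p = 5.5e-06). It was above background on all arrays of slide 1 and on 2 of slide 2, so its fold rests on a side that was partly below background, and without B. clausii 3 its difference was 6.08. Ptgs2, the inducible cyclooxygenase that starts prostaglandin synthesis, read 12.58, 12.55, 12.57 and 12.49 against 8.92, 8.86, 8.77 and 8.87 (3.69 ± 0.1, 12.9-fold, adjusted p = 3.1e-07).

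The constitutive cyclooxygenase Ptgs1, looked up after the values were seen, went the opposite way and was 17.7-fold higher on slide 2 (-4.14 ± 0.13, adjusted p = 5.7e-07). Tnf was bright on both slides, 14.69, 14.71, 14.58 and 14.37 against 13.3, 13.33, 13.32 and 13.3, and 2.42-fold higher on slide 1 (1.27 ± 0.12, adjusted p = 0.00014). Lta, its neighbour and relative lymphotoxin alpha, was 4.32-fold higher (adjusted p = 1.2e-05). Il10, an anti-inflammatory cytokine, was dim and differed by 0.6 ± 0.13 (adjusted p = 0.0098). Il6 was above background on 3 arrays of slide 1 and 0 of slide 2, and Nos2 on 3 of each, so neither is in the table.

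Of 13 chemokines measured, 5 were called higher on slide 1 and 3 higher on slide 2, and the median was -0.175 (0.3 with scaling to the 75th percentile). All 5 were at least 2-fold higher, and all were above background on 8 arrays. Among the 10 chemokines above background on all 8 arrays the counts were 5 and 2, with a median of 0.943. Without B. clausii 3, 11 were above background on the other 7 arrays, with counts of 5 and 3 and a median of -0.121. Cxcl2, a neutrophil attractant, read 14.22, 14.19, 14.36 and 12.62 against 9.49, 9.26, 9.29 and 9.02 (4.58 ± 0.37, 24-fold, adjusted p = 7.9e-05). Ccl7 differed by 4.23 ± 0.14 (18.8-fold), and the monocyte attractant Ccl2 read 16.16, 16.02, 16 and 15.82 against 13.3, 13.33, 13.29 and 13.2 (6.59-fold, adjusted p = 2.4e-06). Ccl4 was 6.96-fold and Ccl6 3.35-fold higher on slide 1, both with arrays that did not overlap. Cxcl10, an interferon-inducible chemokine that both programmes can raise, read 9.07, 9.03, 8.9 and 10.11 on slide 1 and 8.99, 9.09, 9.01 and 9.44 on slide 2. Its arrays overlapped and its difference of 0.14 ± 0.27 was not called (adjusted p = 0.73); its sign changed without B. clausii 3 (-0.142 with that array out of filter and fit). The 3 lower on slide 1, named for their small number, were Cxcl14 (-2.07), Ccl5 (-1.13) and Cx3cl1, which was above background on no array of slide 1 and at least 1.3-fold higher on slide 2.

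An NF-kB motif was searched in the same 250 bases as GGG, any 2 bases and TTTCC on either strand, overlapping matches allowed. It was present for 2 of 12 measured proinflammatory genes with an entry, 2 of 8 chemokines and 4 of 14 NF-kB feedback genes, and for 160 of 9502 genes tested (1.68%). Cxcl2 is shown because it is 1 of the chemokines with a match and differed 24-fold between slides, with its 2 matches in capitals.
Cxcl2, chr5:90903791-90903860, plus strand: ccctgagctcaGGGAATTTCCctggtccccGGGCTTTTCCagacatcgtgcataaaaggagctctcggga

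Immediate early genes, which respond to kinases within minutes, were split. Of 29 measured together with the phosphatases that brake MAP kinases, 12 were called higher on slide 1, 4 higher on slide 2 and 13 neither, with a median of 0.551. Among the 24 above background on all 8 arrays, 11 were called higher on slide 1 and 2 on slide 2. For all 6932 genes of that class the counts were 1047 and 896. Egr1 was above background on all 4 arrays of slide 1 (11.32, 11.39, 11.25 and 12.83) and on none of slide 2 (6.54, 6.49, 6.51 and 6.3), which makes it at least 36.2-fold higher on slide 1. Such bounds set the mean of the bright slide against the higher of the dim probe's own signal and the lowest signal that counted as above background on each array. Maff, a small Maf factor, was 7.12-fold higher on slide 1 (2.83 ± 0.14, adjusted p = 5.7e-06). Fos went the other way, at 10.52, 10.51, 10.53 and 10.5 against 11.88, 11.87, 11.87 and 11.87 (-1.36 ± 0.09, 2.57-fold higher on slide 2, adjusted p = 3.2e-05), and so did Klf4 (-1.49 ± 0.13, 2.81-fold).

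For genes of the NF-kB subunits and their feedback inhibitors the share called was near that of all genes (33.1%). Of 17 measured, 5 were called higher on slide 1 and 0 higher on slide 2, with a median of 0.431, and without B. clausii 3 the counts were 10 and 2. Of the 13 above background on all 8 arrays, 4 and 0 were called, and with each trio as 1 sample 0 of the list were. B. clausii 3 stood above the other arrays of slide 1 in this list, with a median deviation of 0.849 from the gene means against 0.11 to 0.201. Tnfaip3, which encodes the deubiquitinase A20, read 12.26, 12.43, 12.36 and 12.95 against 10.7, 10.7, 10.68 and 10.74 (1.8 ± 0.16, 3.47-fold, adjusted p = 0.00014). Zc3h12a, the RNase Regnase-1 that destroys cytokine messages, was 2.19-fold higher on slide 1 (adjusted p = 0.0005).

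Receptors for bacterial products were called in both directions at shares near those of all genes (12.4% higher on slide 1, 20.7% on slide 2). Of 25 pattern recognition receptors and adaptors, 4 were called higher on slide 1 and 6 higher on slide 2, a median of 0.0949, and 15 were not called. Among the 19 above background on all 8 arrays these counts were 3 and 5, beside 1047 and 896 of the 6932 genes of that class. Tlr2 read 13.52, 13.57, 13.42 and 14.29 against 14.27, 14.36, 14.3 and 14.5, a difference of -0.66 ± 0.2 (1.58-fold higher on slide 2, adjusted p = 0.035) with arrays that overlapped through B. clausii 3. Tlr4, the lipopolysaccharide receptor, differed by -0.54 ± 0.13 (1.45-fold, adjusted p = 0.015), and its co-receptor Cd14 by 0.66 ± 0.1 (1.58-fold higher on slide 1, adjusted p = 0.0014). Nlrp3, the inflammasome sensor that prepares IL-1 beta for release, was 2.26-fold higher on slide 1 (adjusted p = 0.00012). Ly86, which encodes the MD-1 partner of the receptor CD180, read 11.38, 11.47, 11.38 and 11.51 against 14.07, 14, 14.02 and 13.88 and was 5.88-fold higher on slide 2 (adjusted p = 2.0e-06).

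Genes of macrophage identity moved in both directions. Of 32 measured, 12 were called higher on slide 1 and 5 higher on slide 2, with a median of 0.33. Among the 24 above background on all 8 arrays these counts were 11 and 2, beside 1047 and 896 of the 6932 genes of that class. The low-affinity antibody receptors Fcgr3 and Fcgr2b were higher on slide 1, Fcgr3 by 2.98 ± 0.15 (7.91-fold, adjusted p = 6.2e-06) and Fcgr2b, at 12.41, 12.49, 12.45 and 12.44 against 9.74, 9.74, 9.78 and 9.85, by 2.67 ± 0.1 (6.37-fold, adjusted p = 1.3e-06). The high-affinity receptor Fcgr1, itself inducible by interferon and outside the naming rule, was 8.05-fold higher on slide 2. Mpeg1, a pore-forming protein of the phagosome, was 3.17-fold higher on slide 1 (adjusted p = 1.3e-05), and Laptm5, a lysosomal membrane protein of blood cells, 3.8-fold higher on slide 2 (adjusted p = 8.1e-06).

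Of 13 measured osteoclast genes, 7 were higher on slide 1 and 2 higher on slide 2, with a median of 0.575, and of the 8 above background on all 8 arrays 5 and 1. RAW 264.7 cells can become osteoclasts when given RANK ligand. Ctsk, the bone-degrading cathepsin K, read 10.84, 10.99 and 10.89 on slide 1, with no value on B. clausii 3, against 6.71, 6.61, 6.61 and 6.95 (4.18 ± 0.14 over 7 arrays, 18.2-fold, adjusted p = 2.4e-06). Mmp9, a matrix metalloproteinase, was 12.7-fold higher on slide 1 (adjusted p = 0.00023), and the carbonic anhydrase Car2 4.58-fold higher (adjusted p = 1.8e-05). Tnfrsf11a, the RANK receptor itself, was 3.05-fold higher on slide 2 (-1.61 ± 0.13, adjusted p = 6.3e-05).

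**Figure D4:**
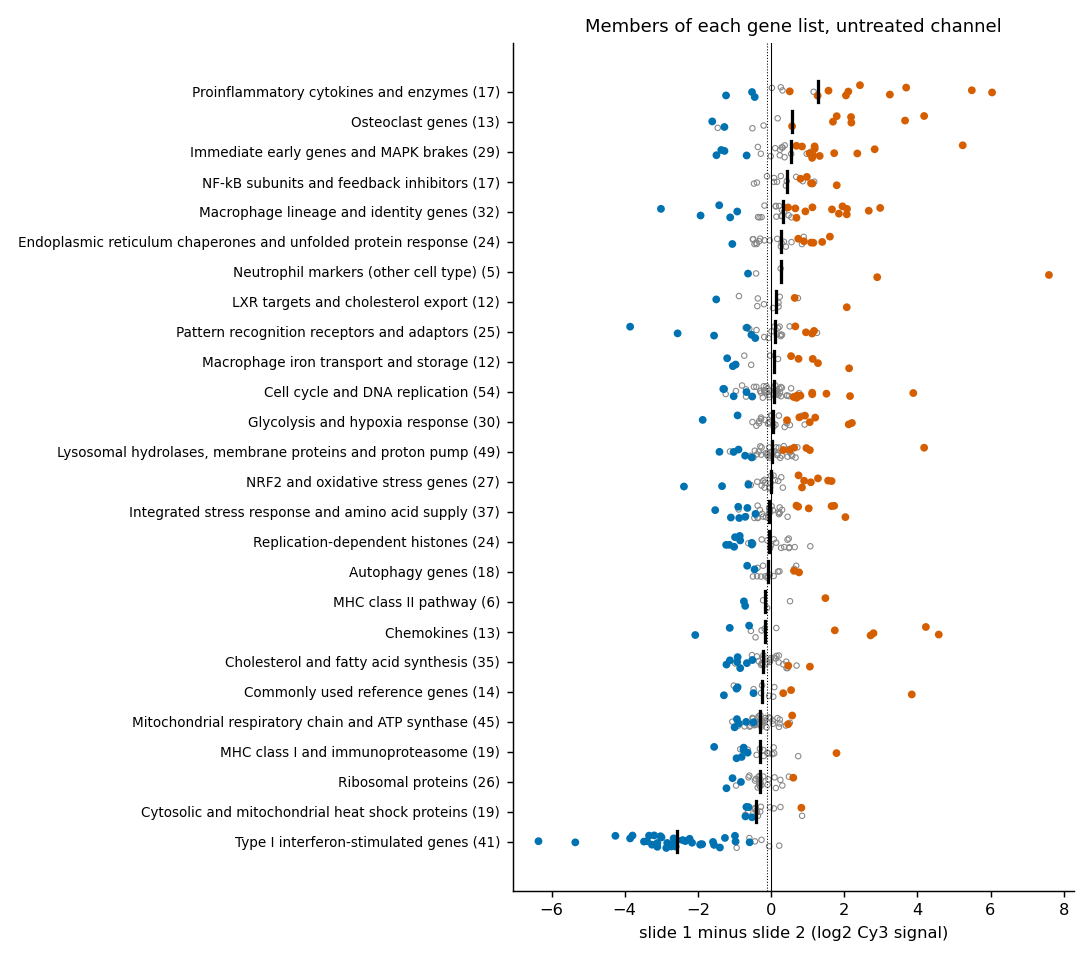
Slide 1 minus slide 2 in log2 Cy3 signal (horizontal axis) for the measured members of 26 gene lists (rows, number measured in brackets). Filled points were called, open points were not, black bars are list medians and the dotted line is the median of all genes at -0.113; the interferon list sits furthest left and the proinflammatory list furthest right.

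The genes furthest apart among those above background on all 8 arrays were not all of one pathway. Fabp4, a fatty acid carrier of fat cells and macrophages, read 14.23, 13.97, 14.25 and 15.76 on slide 1 and 6.8, 6.89, 6.77 and 7.19 on slide 2 (7.64 ± 0.37, 199-fold, adjusted p = 5.0e-06). That is its brightest probe, and the 3 probes of Fabp4 ranged from 3.06 to 7.64. S100a8, a calcium-binding protein of neutrophils and activated macrophages, read 14.27, 14.02, 14.36 and 16.2 against 7.01, 7.16, 6.98 and 7.32 (7.6 ± 0.44, 193-fold, adjusted p = 1.3e-05). For both genes B. clausii 3 was the highest array, and without it the differences were 7.5 and 7.34.

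Csta1, a stefin A inhibitor of cysteine cathepsins, read 14.25, 14.19, 14.33 and 13.64 against 7.23, 7.2, 7.26 and 6.87 (6.96 ± 0.18, 125-fold, adjusted p = 3.1e-07). Its cluster holds near-identical copies that a probe may not tell apart. Cstdc4 was above background on slide 1 only (14.14, 14.04, 14.14 and 11.76) and at least 120-fold higher there. Looked up after these values, Stfa3 was 110-fold higher on slide 1, though above background on 2 arrays of slide 2, with Stfa2 at least 8.28-fold and Stfa1 at least 7.65-fold higher on slide 1. Of 5 neutrophil markers measured, S100a8 and Camp (at least 7.2-fold) were called higher on slide 1 and Prtn3 higher on slide 2 (-0.63 ± 0.19, adjusted p = 0.038), while Cxcr2, Csf3r, Mmp8 and Retnlg were above background on no array. The summed linear level of the 13 neutrophil markers was 18700 to 77300 on slide 1 and 1380 to 1610 on slide 2. S100a8, which activated macrophages also express, was the brightest in it, with B. clausii 3 as its highest array, and the part of other cells in it was not tested.

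Igf1, insulin-like growth factor 1, read 13, 12.96, 12.98 and 11.89 against 6.88, 6.91, 6.88 and 7.12 (5.76 ± 0.26, 54.2-fold, adjusted p = 3.2e-06). Arg1, arginase 1, which marks alternatively activated macrophages, read 12.12, 12.13, 12.24 and 11.03 against 6.54, 6.55, 6.6 and 7.14 (5.17 ± 0.29, 36.1-fold, adjusted p = 9.8e-06), and was above background on only 1 array of slide 2, so its fold rests on a side mostly below background. The other genes named as the largest differences above background on all 8 arrays were Rgs1, a brake on receptor G proteins (4.88 ± 0.12), Serpinf1 (4.6 ± 0.39), Spink5 (4.52 ± 0.22), Prss50 (4.44 ± 0.16) and Cish, a cytokine-induced inhibitor of STAT signalling (4.17 ± 0.41).

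On the side of slide 2 the same rule gave, after the interferon genes, Serpinb6b (-3 ± 0.32), the mitochondrial leucyl-tRNA synthetase Lars2 (-2.77 ± 0.14), Ckap4 (-2.51 ± 0.26), Esf1 (-2.47 ± 0.31), Cd5 (-2.45 ± 0.31), the nuclear RNA Malat1 (-2.43 ± 0.14), Keap1 (-2.38 ± 0.45) and Sltm (-2.3 ± 0.15). Malat1 had several probes that disagreed in direction, and the 3 probes of Esf1 ranged from -2.47 to -0.66. Keap1, the inhibitor of NRF2, read 11.47, 11.37, 11.37 and 9.37 against 13.37, 13.31, 13.33 and 13.09, and without B. clausii 3 its difference was -1.86. Lars2, at 12.83, 12.83, 12.93 and 12.49 against 15.4, 15.46, 15.6 and 15.71, had no overlap between slides.

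The remaining lists are read against 12.4% of all genes called higher on slide 1 and 20.7% on slide 2. Of 30 glycolysis and hypoxia genes, 7 were called higher on slide 1 and 2 higher on slide 2. Vegfa, the vascular growth factor, read 12.97, 12.89, 12.93 and 12.47 against 10.58, 10.64, 10.64 and 10.57 (4.63-fold, adjusted p = 1.7e-05), and the peptide hormone Adm was 4.36-fold higher on slide 1, while the prolyl hydroxylase Egln3 was 3.65-fold higher on slide 2. Of 27 NRF2 and oxidative stress genes, 7 were higher on slide 1 and 3 on slide 2, with Slc7a11, the cystine carrier, 3.15-fold, the metallothionein Mt1 2.95-fold, haem oxygenase Hmox1 2.43-fold and superoxide dismutase Sod2 2.12-fold higher on slide 1.

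Of 12 iron genes, 5 were higher on slide 1 and 3 on slide 2, and the phagosomal metal carrier Slc11a1 was 4.39-fold higher on slide 1 (adjusted p = 3.6e-05). Of 12 LXR and cholesterol export genes, 2 were higher on slide 1 and 1 on slide 2, with the scavenger receptor Cd36 4.2-fold and Apoe 1.56-fold higher on slide 1. Of 24 endoplasmic reticulum chaperones, 6 were higher on slide 1 and 1 on slide 2, among them Herpud1 (2.14-fold) and Calr (3.05-fold), whose probes disagreed in direction. Of 54 cell cycle genes, 9 were higher on slide 1 and 5 on slide 2, with the cyclins Ccnd2 at 14.8-fold and Ccne2 at 4.47-fold higher on slide 1 and the spindle checkpoint kinase Bub1b 2.44-fold higher on slide 2.

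Of 19 MHC class I genes, 1 was higher on slide 1 and 6 on slide 2. B2m, the light chain of class I, differed by -0.94 ± 0.21 (1.92-fold, adjusted p = 0.0097), with its 2 probes at -0.94 and -0.149. The exception was H2-M3, 3.46-fold higher on slide 1 (adjusted p = 0.01). Respiratory chain genes gave 2 and 5 of 45, ribosomal protein genes 1 and 3 of 26, histones 0 and 8 of 24, heat shock proteins 1 and 4 of 19, cholesterol and fatty acid synthesis 2 and 7 of 35, the integrated stress response 6 and 7 of 37, lysosomal genes 6 and 5 of 49, autophagy 2 and 2 of 18, and MHC class II 1 and 2 of 6.

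Genes often used as references were not alike between the slides. Of 14 measured, 3 were called higher on slide 1 and 4 higher on slide 2. Hprt, a purine salvage enzyme encoded on the X chromosome, read 13.59, 13.55, 13.69 and 13.06 on slide 1 and 9.6, 9.64, 9.61 and 9.64 on slide 2, where it was above background on all arrays. It was 14.4-fold higher on slide 1 (3.85 ± 0.15, adjusted p = 1.9e-06), and it stayed called with each trio as 1 sample (adjusted p = 0.0317). Phf6 and Mospd1, its neighbours in the RefSeq order and looked up after this value, differed by -0.02 ± 0.14 and -0.21 ± 0.12 and were not called. Pgk1 was 1.89-fold and Ywhaz 2.44-fold higher on slide 2, the latter with probes that disagreed.

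Some genes were read on 1 slide alone. There were 26 genes above background on all 4 arrays of slide 1 and none of slide 2, and 847 the other way round, of which 749 had a bound above 1. The count of 26 required a signal on B. clausii 3. That array had 10410 probes above background, against 19741 to 26401 on the others, so the 2 counts are not on equal terms. Besides those already named, slide 1 had Kctd12 (at least 23.2-fold), the metalloproteinase Adamts1 (at least 23.1-fold), Eif2s3y (at least 15.8-fold) and the alarmin cytokine Il33 (at least 12.2-fold). Slide 2 had the meiotic gene Rec114 (at least 10.3-fold by 1 of its 2 probes; the brighter one differed by -3.25), Ifi44l (10.2-fold), the mucin Muc13 (9.71-fold), Il2rb, a receptor chain for IL-2 and IL-15 (9.64-fold), Ifi44 (7.21-fold) and the nucleotide kinase Cmpk2 (6.92-fold), each of these also a lower bound. Ifi44l, Ifi44 and Cmpk2 are interferon-inducible. The 2 probes of Cmpk2 ranged from -3.11 to -0.825.

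Eif2s3y lies on the Y chromosome, which led to a look at other genes there. Eif2s3y read 10.65, 10.58, 10.55 and 10.16 on slide 1 and 6.28, 6.3, 6.52 and 6.34 on slide 2. Ddx3y read 9.52, 9.51, 9.25 and 10 against 6.15, 6.18, 6.15 and 6.2, and was at least 8.87-fold higher on slide 1. Kdm5d read 8.02, 8.01, 7.92 and 9.07 against 6.47, 6.43, 6.42 and 6.58, at least 3.42-fold higher on slide 1. All 3 were above background on every array of slide 1 and on none of slide 2. The treated channel of the same arrays split in the same way, Eif2s3y reading 10.4, 10.32, 10.33 and 9.94 in Cy5 on slide 1 and 6.61, 6.33, 6.39 and 6.41 on slide 2. Uty was above background on no array, and of 4 Xist probes 1 was, on 1 array of slide 1 and 3 of slide 2.

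Neighbouring genes also differed together in places. Genes above background on 7 arrays, B. clausii 3 left out, were put in RefSeq order (GRCm38.p6, used for order only), and medians were taken over runs of 31 neighbours, a description chosen after the values were seen. Over 320 runs that shared no gene, the 5th and 95th percentiles were -0.345 and 0.351, around a median of 0.00774 for the 10276 genes, and the extremes were -0.769 and 0.888. Of those 320 runs, 5 had a median above 0.5 and 5 a median below -0.5. The runs named next were picked as the extremes of all positions, moving gene by gene, and need not be among those 320. They were picked to share no gene, but may lie side by side on 1 chromosome. In the run from Akap11 to Dnajc3, 29 of 31 genes were higher on slide 1, with a median of 1.05, and in the run from Rhobtb2 to Tsc22d1, which includes Rb1, 27 of 31 were, with a median of 0.801. The lowest was the run from Dpm1 to Gm14295, with 27 of 31 genes higher on slide 2 and a median of -0.769. In Cy5, B. bifidum 3 against B. bifidum 1 and 2 gave medians of 1.06, 0.719 and -0.676 for these 3 runs.

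The treated channel could be set beside the untreated 1 for strains present on both slides. Within strain, on 6 arrays, 2091 of 11652 genes (17.9%) were called between slides in Cy5 and 1735 (14.9%) in Cy3. The Cy5 count was 6931 without B. bifidum 3, 3028 without B. clausii 3, 112 and 152 without B. clausii 2 and 1, and 521 and 1135 without B. bifidum 1 and 2. Without B. bifidum 3, slide 1 was B. clausii 3 alone, the array with the poor grid, and without B. clausii 3 it was B. bifidum 3 alone. The Cy5 and Cy3 comparisons share their arrays, so their values are given side by side. For B. bifidum 3 against the mean of B. bifidum 1 and 2, Rtp4 differed by -5.77 in Cy5, Usp18 by -5.22 and Isg15 by -3.79, and Csf3, Il1b and Ptgs2 by 4.98, 4.98 and 3.46. The median of the interferon list was -2.27 in Cy3 and -2.01 in Cy5, and that of the proinflammatory list 1.27 and 1.21. At least 2-fold apart were 15.4% of genes in Cy3 and 18.2% in Cy5.

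**Figure D5:**
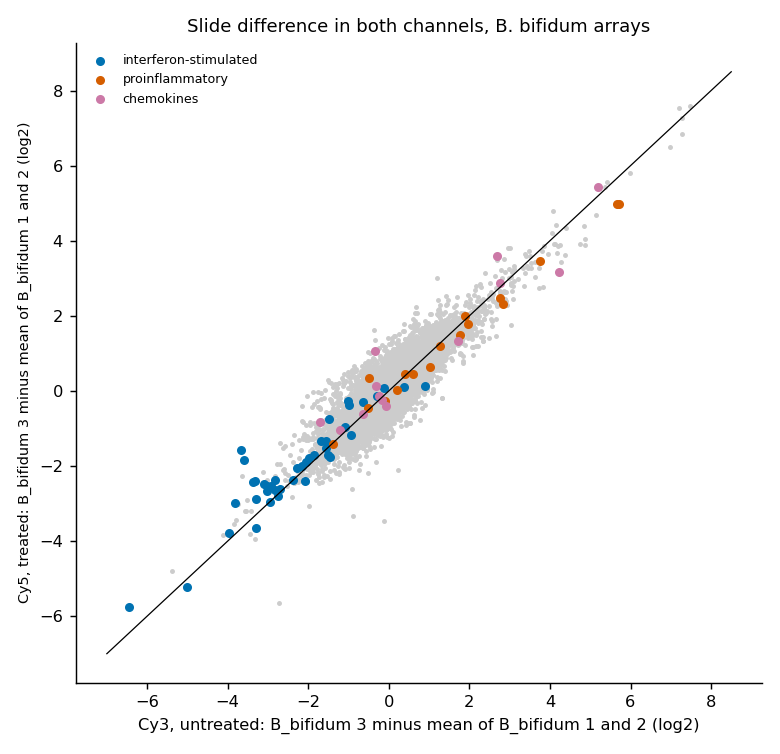
Slide difference of each gene in the treated channel (Cy5, vertical) against the untreated channel (Cy3, horizontal), both as B. bifidum 3 minus the mean of B. bifidum 1 and 2 in log2 signal, with the line of equality. Rtp4, at -5.77 in Cy5, is the lowest interferon-stimulated point, and the coloured lists lie along the line on both sides of 0.

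Whether the slides differed unequally in the 2 channels was tested on the ratio of Cy5 over Cy3, again within strain. Slide 1 again held only B. bifidum 3 and B. clausii 3, so leaving out 1 left the other alone there. Of 11640 genes, 3404 (29.2%) were called, and 1570 to 2006 were without any 1 array of slide 2, 6049 without B. bifidum 3 and 5006 without B. clausii 3. Grn, the progranulin gene, had the lowest difference, with log2 ratios of -2.32 and -1.88 for B. bifidum 3 and B. clausii 3 on slide 1 and of 0.91, 0.91, 1.17 and 1.36 on slide 2 (-3.18 ± 0.18, adjusted p = 0.0019). Its Cy3 level alone did not differ past the threshold (-0.63 ± 0.43, adjusted p = 0.3). Fli1, an ETS transcription factor, had ratios of 0.11 and 0.33 on slide 1 and of -1.57, -1.6, -1.56 and -1.61 on slide 2 (1.81 ± 0.08, adjusted p = 0.0018), with a Cy3 difference of -1.34. The other genes of the rule were Sacm1l, Rcor3, Selenbp2 and Cux1, higher on slide 1, and Dusp8, Syt10, Rmrp and Ptms, lower there.

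Within slide 2 the untreated channels of the B. clausii and the B. bifidum arrays were compared as a yardstick. It set 2 arrays against 2, with B. bifidum 2 among them, where the slide comparison set 4 against 4. Their counts are therefore not on equal terms. Called were 14 of 11781 genes (0.119%), all at least 2-fold higher on the B. clausii arrays. Leaving out an array of slide 2 left 1 array on a side, which without B. bifidum 1 was B. bifidum 2. The count was 0 without B. clausii 2 or either L. acidophilus array, 31 without B. clausii 1, 22 without B. bifidum 2 and 5378 without B. bifidum 1. Olfr635, an odorant receptor, read 9.61 and 9.55 on B. clausii 1 and 2 and 7.08 and 7.07 on B. bifidum 1 and 2 (2.51 ± 0.09, adjusted p = 0.0038), and 7.78 to 8.12 on slide 1 apart from B. clausii 3. Hif3a (2.34 ± 0.2), Serpina3m (2.25 ± 0.17), Celsr2 (2.14 ± 0.19) and Opn5 (1.88 ± 0.15) were the other named genes, and their slides did not differ past the threshold.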

How the data were processed

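The deposited values were scanner intensities: per the file headers, the authors scanned each 2-colour array and used Feature Extraction from Agilent (version 10.7.3.1, or 10.5.1.1 by the submitters' processing notes), which gave a median pixel intensity and local background per spot in each channel. Gene names came from matching the accession of each probe to RefSeq transcripts, and 13976 of 41174 probes had no match and no name. Here the Cy3 median intensities were corrected with normexp (offset 50), quantile scaled between the 8 arrays and averaged over spots of a probe, without control and outlier spots, in limma 3.58.1 under R 4.3.3. A probe was above background where most of its spots were, saturated where any spot was. Each gene was read by its brightest probe, and 1035 of 3777 genes with several probes had probes that disagreed in direction. Slides, taken from the barcode prefix in the files, were compared with lmFit and eBayes and Benjamini-Hochberg adjustment at 0.05, with a further rule of at least 2-fold. Values without B. clausii 3 were rescaled without it. The number of arrays limits the precision. Checks within slide 2, in Cy5 and on the ratio used the same model, the last pair with strain as a term.

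The named genes were a fixed set of macrophage genes, the 12 largest differences each way above background on all arrays, the 4 called members of each list with the smallest p, the 6 largest bounds each way and up to 5 each way from the comparisons within slide 2 and of ratios; clone and predicted names were left out, and not every gene of the rule is described. Members, lists and rules were chosen with earlier results of these data known. Alternatives of background, scale, filter, probe summary, test, block and left-out arrays are in the closing section; the scripts were tested on simulated data. Promoters came from RefSeq (GRCm38.p6). The value table of ratios deposited with the series was not used here.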

Additional observations from a re-analysis of the deposited data

Results flagged for a closer look

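In 206 groups of 4 arrays, 1 gene on 1 slide each, the array farthest out was tested by its gap to the nearest other array over the range of the group, against Dixon's critical value for 4 values. It was past that value in 52 groups, where chance gives about 5% of groups. Of the 52, B. clausii 3 was the highest array in 19 and the lowest in 17, B. bifidum 2 was the highest in 13 and the lowest in 2, and B. clausii 1 was the highest in 1, and the values below are log2 Cy3 levels of the array that stood apart.

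B. clausii 3 lay far above the other arrays of slide 1 for Cxcl10 (10.11), Il10 (8.26), Fabp4 (15.76), S100a8 (16.20), Serpinf1 (13.68), Cish (12.28), Igtp (10.61), Serpinb6b (9.12), Cd5 (10.57), Ifi27l2a (11.61), Egr1 (12.83), Apoe (9.49), Ccnd2 (12.86), Fcgr3 (11.35), Tnfrsf11a (10.01), Mmp9 (11.77), Rec114 (8.61), Rcor3 (12.62) and Fli1 (11.23). It lay far below them for Il1b (11.26), Arg1 (11.03), Igf1 (11.89), Cxcl2 (12.62), Esf1 (10.11), Keap1 (9.37), Cd36 (11.22), Vegfa (12.47), Ccne2 (10.70), H2-M3 (9.88), Cstdc4 (11.76), Kctd12 (10.19), Adamts1 (10.55), Il33 (9.32), Hif3a (6.69), Grn (13.13) and Syt10 (8.09). B. bifidum 2 lay far above the other arrays of slide 2 for Arg1 (7.14), Igf1 (7.12), Serpinf1 (8.13), Serpinb6b (11.30), Ddx58 (10.88), Rtp4 (14.98), Sod2 (15.06), Fcgr3 (8.45), Tnfrsf11a (11.62), Camp (6.57), Muc13 (10.71), Cux1 (11.67) and Rmrp (9.05), and far below them for Csta1 (6.87) and Esf1 (13.32). B. clausii 1 lay above the others for Fos (11.88).

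The 10 genes named for their Cy5 over Cy3 ratio were picked as the largest slide differences within strain, 5 each way. All 10 were called by the same limma test that picked them, which called 3404 of 11640 genes (29.2%). Slide 1 minus slide 2 in the log2 ratio was above 0 for Sacm1l (1.83), Rcor3 (1.81), Fli1 (1.81), Selenbp2 (1.73) and Cux1 (1.6), and below 0 for Grn (-3.18), Dusp8 (-2.16), Syt10 (-1.93), Rmrp (-1.85) and Ptms (-1.77). For Selenbp2 the B. clausii arrays of slide 2 read -2.6 and -2.65 and the B. bifidum arrays -0.03 and 0.08, so the strains differed on that slide.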

How the results depend on the processing

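The slide comparison was refitted under 30 alternatives. For the named genes, 2799 of 2987 refitted values kept their direction and their side of the threshold, 163 kept their direction and lost the call, 5 gained it and 20 changed sign. With scaling to the 75th percentile 1107 genes were called higher on slide 2, and with median centring 230 were called higher on slide 1 and 384 on slide 2 (230 and 373 at least 2-fold), with the median of all genes at 0.151 against -0.113. At least 2-fold higher on slide 2 were 1469 genes with plain subtraction and 1817 with the processed signal. Requiring signal on both slides left 831 higher on slide 2 (277 at least 2-fold) and 54.7% of calls on the side of slide 1, from fewer genes tested. Each probe on its own gave 2485 and 4184 (930 and 1561 at least 2-fold), from more features tested. A minimum log2 difference of 1 gave 193 and 150 under both rules. Alternatives chosen after seeing the data gave 3530 and 4203 without B. clausii 3 in filter and fit, 4486 and 5944 without B. bifidum 2 as well, and 36 and 20 under both rules with each trio as 1 sample.

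Leaving out 1 array gave 995 to 3190 genes higher on slide 1, 1865 to 4259 higher on slide 2, and 532 to 720 and 867 to 1017 at least 2-fold; the highest of the first 3 ranges came without B. clausii 3, the lowest of the first 3 without B. clausii 1. The same ranges were 0 to 5378 for the comparison within slide 2, 112 to 6931 for Cy5 and 1570 to 6049 for the ratio. The highest count of each range came with B. bifidum 2 or B. clausii 3 alone on its side. With the 75th percentile, or signal on both slides, 0 genes differed within slide 2, and the Cy5 counts were 380 and 1013.

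With the replicate number as a block, 663 and 989 genes were called. Deviations from the slide means correlated at 0.388, 0.374, 0.262 and -0.499 for same-numbered arrays of the 2 slides. Differently numbered pairs gave 0.229 to 0.409 without B. clausii 3 and B. bifidum 2. B. bifidum 2 gave -0.481 with L. acidophilus 1 and -0.518 with B. bifidum 3. The values followed the outlying arrays, so they cannot tell whether numbers pair the samples. The block could not be fitted for Cy5 or the ratio, where number 3 is slide 1. Cxcl10, uncalled, ranged from -0.142 to 0.263 when 1 array was left out, and read -0.0838 with the block, -0.0927 with the processed signal, -0.142 without B. clausii 3 and -0.0365 without B. bifidum 2 too. The other Cy3 differences that changed sign were uncalled or belong to genes named for other comparisons. Hif3a read 0.0863 with median centring, and -0.885 to 0.0877 when 1 array was left out, with 0.03 without B. clausii 2 and 0.0877 without B. clausii 3. Syt10 read 0.192 with median centring, 0.0667 with the block and -0.356 to 0.0287 when 1 array was left out, the latter without B. clausii 3. Ptms read 0.114 with median centring and 0.0725 with strain as a block. Rcor3 read -0.257 with the block, -0.249 to 0.399 when 1 array was left out (-0.249 without B. clausii 3) and -0.146 without B. bifidum 2 too. Cux1 read -0.0272 with each trio as 1 sample. The causes were not tested.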
